A study of Equus caballus with 4 samples.

Results

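Transforming growth factor beta (TGF-β), activin and myostatin are related secreted ligands, and 10 genes of their signalling were examined in cultured satellite cells of the horse (ESC), which are the stem cells of skeletal muscle. The 10 genes were the ligands *TGFB1*, *TGFB2*, *TGFB3*, *MSTN* (myostatin) and *INHBA* (the βA subunit of activin A), the receptors *TGFBR1*, *TGFBR2*, *TGFBR3* and *ACVR2B*, and *FST* (follistatin), a binding protein that neutralizes activin and myostatin. They were chosen by gene symbol in the annotation of the array. Of the 10, 8 were listed under their own symbol, with 18 probes on 22 spots. The other two were recognized by their description: *TGFBR1* is listed as ALK5 and *TGFBR3* only by a transcript identifier. All 10 together had 25 probes on 29 spots, out of 43603 probes and 24997 different listed names on the array. The cells came from *m. semitendinosus* of 6-month-old stallions and had differentiated until day 3 when collected. Cells of the HMB-treated group had been kept for 24 h with 50 µM HMB, a metabolite of leucine, and received 3 mM H2O2 for the last 1 h of that time. The control group received the same H2O2 without HMB, so no array holds cells that were spared H2O2. On each of 4 arrays, HMB-treated RNA labeled with Cy5 was hybridized together with control RNA labeled with Cy3, so a spot yields a single ratio on an array, and the arrays are the replicates. The methods state that a single culture, the one with the best viability and fusion, was carried forward, hence the 4 replicates need not be 4 horses. Every array carries the same control replicate number in its label. The p-values below therefore measure only the spread between these 4 arrays. The dyes were not swapped, so dye and treatment cannot be told apart, and all 4 arrays lay on 1 slide.

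TGF-β ligands are secreted in a latent form that is held in the matrix and has to be released before it can signal. Ligands of this family bind a type II receptor, which then activates a type I receptor, and the TGF-β and activin branch passes the signal to the nucleus through SMAD2, SMAD3 and SMAD4. In skeletal muscle, TGF-β and myostatin are known as brakes on myoblast differentiation and muscle growth, and follistatin as an antagonist that releases the brake. All values below are log2 ratios of the HMB-treated cells over the control cells, so a negative ratio is a lower signal with HMB. A probe was called at a limma adjusted p of 0.05 or less together with a fold change (FC) of 1.3 or more, and a gene with several tested probes is given by its brightest one.

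The sequences of 3 pairs of probes are shown, since the probes of each pair adjoin or overlap. Whether the sequence affects a reading was not tested. Both *TGFB2* probes lie end to end on the minus strand of chromosome 30 (EquCab1), from 4093007 down to 4092888, and run through the end of the coding sequence. An open frame of 95 bases leads to a TAA stop codon, printed in capitals, and the last 22 bases of the downstream probe, which follow the stop, are not printed.

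*TGFB2* upstream probe: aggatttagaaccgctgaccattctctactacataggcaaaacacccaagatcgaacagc

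*TGFB2* downstream probe, up to the stop codon: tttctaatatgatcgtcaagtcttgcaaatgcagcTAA

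The 2 probes of *MSTN* are arranged in the same way on the minus strand of chromosome 18, from 55025019 down to 55024900, with an open frame of 117 bases before a TGA stop codon, also in capitals. They are adjacent, yet only the upstream one gave a signal.

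*MSTN* upstream probe: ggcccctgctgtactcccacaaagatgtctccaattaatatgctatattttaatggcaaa

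*MSTN* downstream probe: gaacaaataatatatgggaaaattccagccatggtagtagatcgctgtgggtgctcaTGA

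A pair of *TGFBR1* probes on the minus strand of chromosome 25 overlaps by 30 bases, printed in capitals. The upstream probe (29695843 to 29695902) was dim, whereas the downstream probe (29695813 to 29695872) was well above background in both channels of all 4 arrays.

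*TGFBR1* upstream probe: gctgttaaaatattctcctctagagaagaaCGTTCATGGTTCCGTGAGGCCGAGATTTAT

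*TGFBR1* downstream probe: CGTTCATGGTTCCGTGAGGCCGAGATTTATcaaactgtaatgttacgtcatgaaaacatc

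Between 55.2% and 61.8% of the spots were well above background in a channel, no spot was saturated, and the ratios of 2 arrays correlated across tested probes with r from 0.837 to 0.920. A total of 24670 probes were tested. Markers of differentiating muscle fell in 9 of 11 tested genes, and the summed signal of that list was 191700 to 213400 in the control channel and 77880 to 121100 in the HMB channel. Of the satellite cell and myoblast markers, 6 of 9 were tested, 4 were called lower and 1 higher, and *PAX7*, which defines satellite cells, was not well above background on any array. Fibroblast markers were called higher in 5 of 9 tested genes and lower in none. Their summed signal was 538000 to 664900 in the control and 553300 to 836000 with HMB, ranges that overlap. Most of that sum came from *COL1A2*, *COL3A1* and *S100A4*, whose brightest probes were not called (means −0.23, 0.06 and 0.15), so it does not describe the called genes. Of 9 macrophage and leukocyte markers, 3 were tested and 2 were called higher. No endothelial or adipocyte marker passed the filter on dim probes. The part of these differences in the ratios below was not tested.

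Among the members, *TGFB2* was lower with HMB and no other gene was called. A total of 8 genes were tested on 18 probes, and 1 gene (2 probes) was called, lower on both. Over the whole array 28.6% of tested genes were called, 16.3% lower and 12.3% higher. The median ratio of the 8 genes was −0.12, beside −0.07 for all tested probes. Since these are ratios of RNA from whole cultures, fewer cells that express a gene and less RNA per cell cannot be told apart. Only one alternative changed the number of genes called. When each array was shifted so that its spike-in RNA had a median ratio of 0, the median of all tested probes moved to −0.48. Then 6 of the 8 genes were called, all lower, beside 16725 of all 24670 tested probes, 15335 of them lower.

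**Figure D1:**
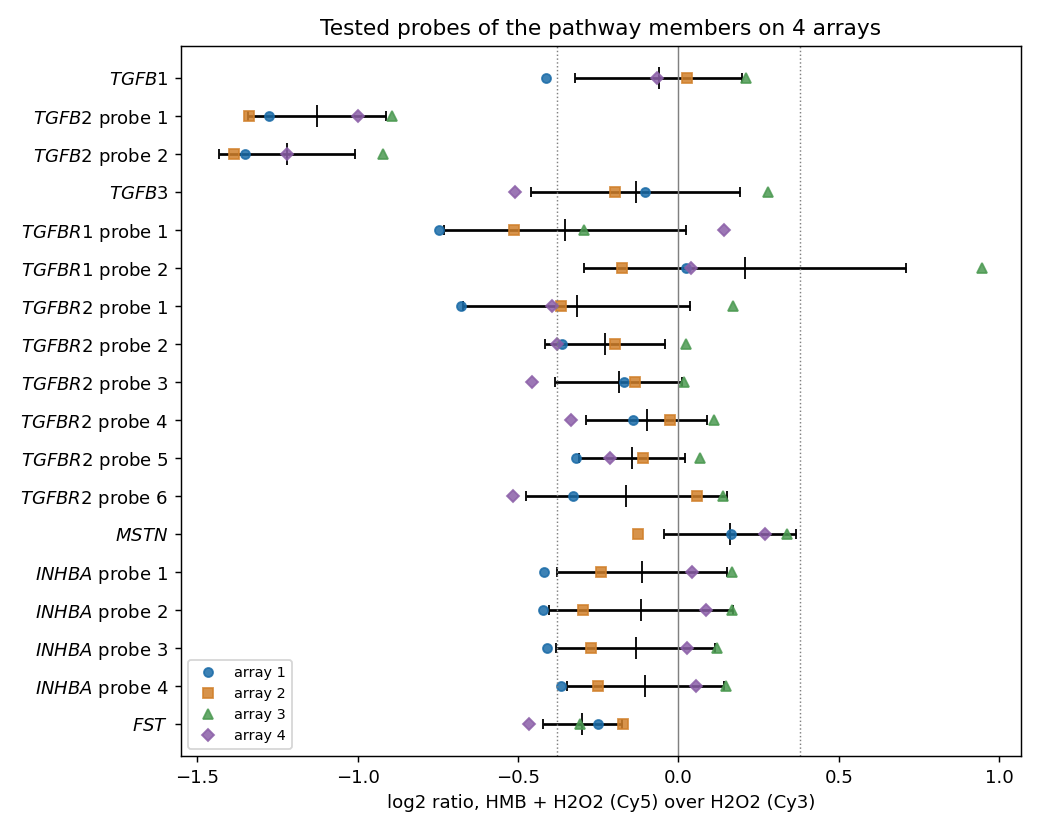
Log2 ratio (x axis) of each of the 18 tested probes of the members (y axis, probes of a gene numbered from upstream to downstream). Points are the 4 arrays, the vertical tick and bar are the mean ± SD, and dotted lines mark an FC of 1.3. All points of *TGFB2* lie between −1.39 and −0.89, whereas all other members have points on both sides of 0 except *FST*.

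The 3 TGF-β isoforms are encoded by separate genes, and their mature peptides bind the same receptors. The upstream *TGFB2* probe had control signals of 6255, 5575, 7126 and 5482 on arrays 1 to 4 and HMB signals of 2583, 2205, 3835 and 2741. The channels did not overlap, since the highest HMB signal lay below the lowest control signal. Its ratios were −1.28, −1.34, −0.89 and −1.00, with a mean of −1.13 ± 0.21 (SD, n = 4, FC 2.18, limma adjusted p = 2.67e-04). Among all tested probes, 1.58% had a ratio as low or lower. The downstream probe gave −1.35, −1.39, −0.92 and −1.22, a mean of −1.22 ± 0.21 (SD, n = 4, limma adjusted p = 1.92e-04). On both probes array 3 had the ratio nearest to 0 and array 2 the lowest.

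A further pair of probes, listed only by the accession of an expressed sequence tag, carried a RefSeq accession of *TGFB2*, which brings its probes to 4. They lie downstream on the same strand, at 4092198 to 4092257 and 4092138 to 4092197 on chromosome 30, starting 750 and 810 bases after the start of the first probe. Their mean ratios were −1.10 ± 0.18 and −1.04 ± 0.15 (SD, n = 4, limma adjusted p = 1.92e-04 and 1.73e-04). All 4 probes were thus called lower. Over 4 probes and 4 arrays, the ratio stayed between −1.39 and −0.84. Within an array the 4 probes spanned 0.08 to 0.30, and array 3 was nearest to 0 on each of them. They are readings of the same RNA on the same arrays and not independent samples.

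**Figure D2:**
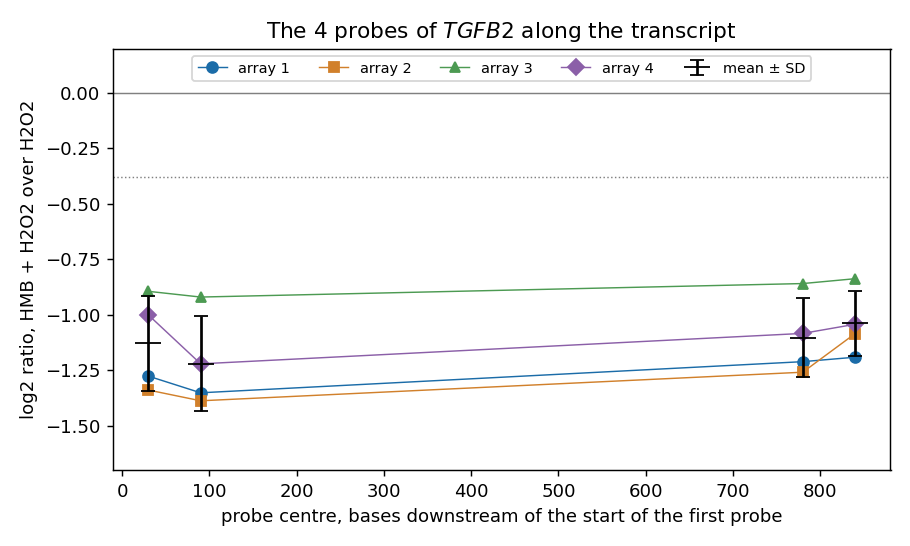
Log2 ratio (y axis) of the 4 probes of *TGFB2* against the position of the probe centre in genomic bases (x axis). Lines join the values of 1 array, black bars are the mean ± SD over 4 arrays, and the dotted line marks an FC of 1.3. The 4 means lie between −1.22 and −1.04, and array 3 is the highest at each position.

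For *TGFB1*, the isoform best known for driving fibrosis, 1 probe crosses exons on chromosome 10 (11890705 to 11892011). Its control signals were 256, 203, 231 and 199 and its HMB signals 192, 206, 267 and 190. The ratios of −0.41, 0.03, 0.21 and −0.07 fell on both sides of 0, and the mean was −0.06 ± 0.26 (SD, n = 4, limma adjusted p = 0.664). For *TGFB3*, known for its part in palate development and scar-free healing, 1 probe also crosses exons, on chromosome 24 (20972377 to 20974213). It gave control signals of 253, 234, 244 and 210 and HMB signals of 235, 204, 296 and 147. Its ratios were −0.10, −0.20, 0.28 and −0.51, again with array 3 highest (mean −0.13 ± 0.32, SD, n = 4, limma adjusted p = 0.415).

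Differences between 2 genes on the same array were calculated for 7 pairs, because a shift shared by all probes of an array cancels in them. The ratio of *TGFB2* minus that of *TGFB1* was −0.86, −1.36, −1.10 and −0.93, below 0 on 4 of 4 arrays, with a mean of −1.07 ± 0.22 (SD, n = 4). The ratio of *TGFB3* minus that of *TGFB2* was 1.17, 1.14, 1.17 and 0.49, above 0 on 4 of 4 arrays (mean 0.99 ± 0.34, SD, n = 4). Both reached the smallest p that a two-sided exact sign-flip permutation test can give with 4 arrays (adjusted p = 0.219 after Benjamini-Hochberg over 7 pairs), and this design cannot pass 0.05. Between *TGFB3* and *TGFB1* the difference was −0.07 ± 0.33 (SD, n = 4, exact sign-flip p = 0.75), with a 95% interval from −0.59 to 0.45.

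The gene *MSTN* encodes myostatin, a ligand made by muscle cells that limits muscle mass. Its upstream probe had control signals of 83.2, 93.7, 86.8 and 60.8 and HMB signals of 93.1, 85.9, 109.8 and 73.3, well above background on all arrays in both channels. The ratios were 0.16, −0.13, 0.34 and 0.27, above 0 on 3 of 4 arrays, with a mean of 0.16 ± 0.20 (SD, n = 4, limma adjusted p = 0.188). The downstream probe, which begins at the next base, had control signals of 5.08 to 5.80 and HMB signals of 6.81 to 8.54 and was not well above background in either channel of any array. Its ratio is deposited as 0 on all 4 arrays, so it carries no measurement. The 2 stretches hold 40.0% and 41.7% G and C.

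The gene *INHBA* encodes the βA subunit, and a pair of these subunits forms activin A. It had 4 probes on chromosome 4, each shifted by 1 base against the next (together 12890043 to 12890105), and 1 of them was spotted 5 times on every array. The brightest probe had control signals of 3554, 3523, 3829 and 2545 and HMB signals of 2654, 2868, 4295 and 2702. Its ratios were −0.42, −0.30, 0.17 and 0.09, so arrays 1 and 2 were below 0 and arrays 3 and 4 above it (mean −0.12 ± 0.29, SD, n = 4, limma adjusted p = 0.432). The other three probes had means of −0.10 to −0.13 and the same split of the arrays. Among the 5 spots of the repeated probe, the SD within an array was 0.02 to 0.04, whereas the SD of its mean ratio between arrays was 0.24.

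The single *FST* probe, on chromosome 21 (14378171 to 14378230), had control signals of 1014, 990, 1484 and 1337 and HMB signals of 852, 877, 1199 and 969. The HMB signal was the lower one on each array, although the ranges of the channels overlapped between arrays. The ratios of −0.25, −0.17, −0.31 and −0.46 gave a mean of −0.30 ± 0.12 (SD, n = 4, FC 1.23, limma adjusted p = 0.0155), which passed the p-value threshold and not the FC of 1.3. The p-value did not pass with treat, the methods' t-test (adjusted p = 0.0526) or median centering (limma adjusted p = 0.057). With 1 array left out, the limma adjusted p ranged from 0.0279 to 0.0581. After the scaling to spike-in RNA, *FST* was called (−0.71). Its difference from *MSTN* was below 0 on 4 of 4 arrays (−0.46 ± 0.31, SD, n = 4, exact sign-flip adjusted p = 0.219). For *INHBA* minus *MSTN* it was also below 0 on 4 of 4 arrays (−0.28 ± 0.20, SD, n = 4, with the same exact adjusted p). With normexp the latter shrank to −0.0834, without background correction to −0.15 and with median centering to −0.13, each below 0 on 3 of 4 arrays, and *FST* minus *MSTN* was below 0 on 3 of 4 arrays with normexp (−0.23) and with median centering (−0.34). From *INHBA*, *FST* differed by −0.18 ± 0.38 (SD, n = 4, exact sign-flip p = 0.5), with a 95% interval from −0.79 to 0.43.

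**Figure D3:**
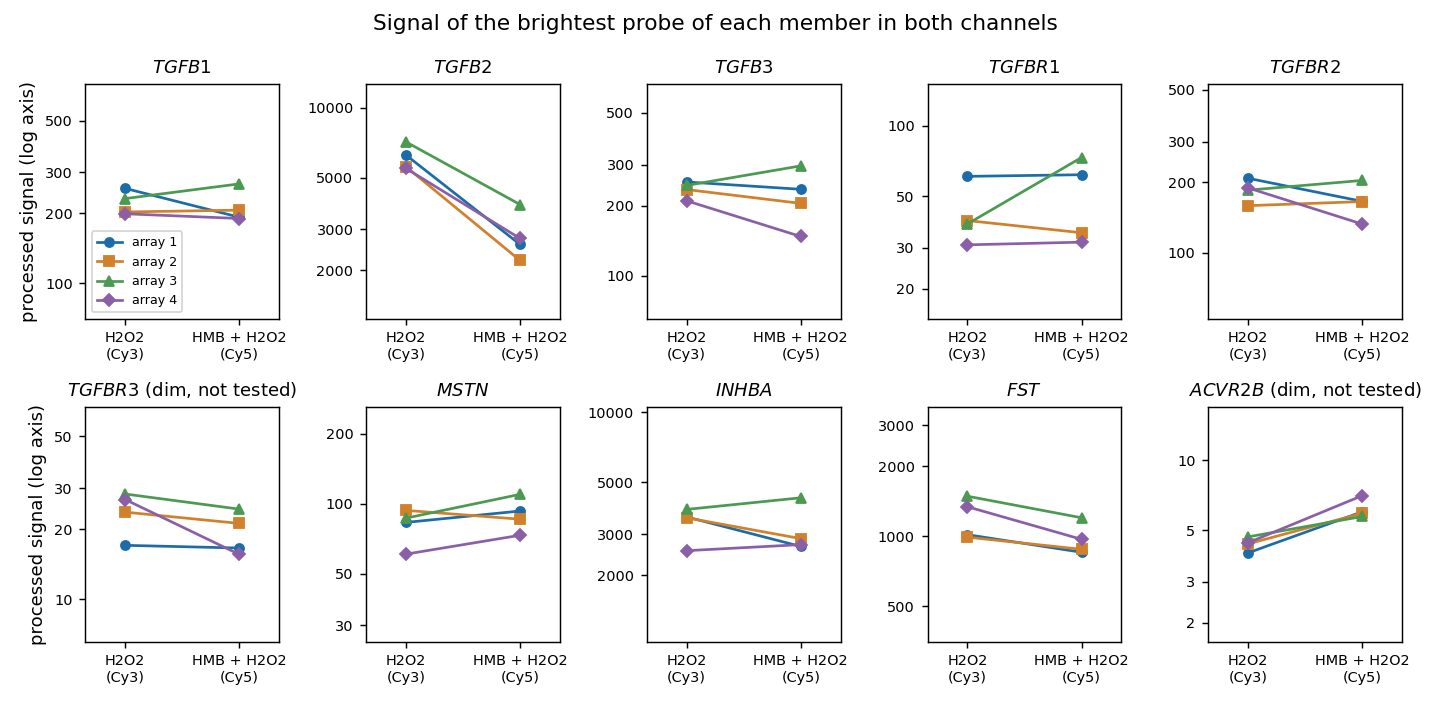
Processed signal (y axis, log scale with the same number of doublings in each panel) of the brightest probe of each of the 10 members in the control (Cy3) and HMB (Cy5) channels. Each line is 1 array. The lines of *TGFB2* fall steeply on all 4 arrays and those of *FST* slightly, the other tested genes have lines that rise and lines that fall, and *TGFBR3* and *ACVR2B* are close to background. Levels of different probes are not comparable.

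The type I receptor gene *TGFBR1* had 6 probes, of which 2 were tested. The brighter one (29681929 to 29681988) had control signals of 60.8, 39.2, 38.0 and 30.9 and HMB signals of 61.7, 34.8, 73.2 and 31.7. Array 3 stood above the others, with ratios of 0.02, −0.17, 0.95 and 0.04 (mean 0.21 ± 0.50, SD, n = 4, limma adjusted p = 0.379). Without array 3 the mean was −0.04. The downstream probe of the overlapping pair gave −0.75, −0.51, −0.29 and 0.14, with a mean of −0.35 ± 0.38 (SD, n = 4, limma adjusted p = 0.0839). The 2 tested probes of *TGFBR1* thus had means of opposite sign, neither called, and the mean over both was −0.07. The 4 other probes were not well above background on all arrays in either channel, so their ratios are a description. The upstream probe of the overlapping pair gave 0.36, −0.12, 0.91 and 0.02, unlike the downstream probe with which it shares 30 bases. Its control signals were 15.2 to 23.7 and its HMB signals 15.4 to 34.6. The probe at 29682510 to 29682569 gave 1.33, −0.22, 0.13 and −0.07. A probe across exons gave −1.93 to 0.33, and the last gave 0 except on array 3 (1.34).

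The type II receptor gene *TGFBR2* encodes the receptor that binds TGF-β directly. It had 6 tested probes, 5 of which overlap within 67 bases on chromosome 16 (53263710 to 53263776) and 1 of which crosses exons upstream (53264490 to 53267432). The brightest probe had control signals of 209, 159, 185 and 190 and HMB signals of 166, 166, 204 and 133. Its ratios of −0.33, 0.06, 0.14 and −0.52 lay on both sides of 0 (mean −0.16 ± 0.31, SD, n = 4, limma adjusted p = 0.311). Means of all 6 probes ranged from −0.32 to −0.10, and none was called. On array 3 every probe was above 0. The probe across exons had the lowest mean (−0.32 ± 0.35, SD, n = 4, limma adjusted p = 0.0964). Between *TGFBR2* and *TGFBR1* the difference was −0.37 ± 0.44 (SD, n = 4, exact sign-flip p = 0.25), with a 95% interval from −1.08 to 0.34.

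The co-receptor gene *TGFBR3* (betaglycan), which presents TGF-β2 to the type II receptor, and the activin and myostatin receptor gene *ACVR2B* gave no tested probe. The *TGFBR3* probe, on the plus strand of chromosome 5, had control signals of 17.0, 23.6, 28.3 and 26.8, well above background on 2 arrays, and HMB signals of 16.6, 21.1, 24.4 and 15.6, well above background on none. Its deposited ratios were all below 0, from −0.78 to −0.04. Without the filter on dim probes its mean was −0.30 ± 0.33 (SD, n = 4, limma adjusted p = 0.257). The *ACVR2B* probe, which crosses exons on chromosome 16 (46798986 to 46800595), was not well above background on any array, with control signals of 3.99 to 4.68 and HMB signals of 5.72 to 7.03, and its deposited ratio was 0 on all 4. Nothing can be said from it about the level of *ACVR2B*.

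Most members shared the array with the highest ratio but not the one with the lowest. Array 3 had the highest ratio of the 4 in 7 of the 8 tested genes, all but *FST*. Over all tested probes with 4 ratios, array 3 was the highest for 30.0% and the lowest for 28.0%. This order was not particular to the members. Array 3 was also the highest for most markers of differentiating muscle. The same held for *ITGAV*, *LTBP1*, *ACVR1*, *ACVR2A*, *DCN*, *FSTL3*, *SMAD4*, *USP15* and *JUNB* of the pathway lists below. It did not hold for *GDF11*, *SKI*, *SNAI2*, *ITGB6*, *NEDD4L*, *ZFYVE9*, *SMAD2* or *SMAD3*. The median of the 8 genes was −0.29, −0.17, 0.19 and −0.27 on arrays 1 to 4, while the median of all tested probes stayed between −0.08 and −0.06. Accordingly 6 of the 8 genes were above 0 on array 3 and 2 or 3 on each other array.

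The other genes of the pathway were followed through 7 lists with 79 genes in all, of which 75 had a probe and 57 a tested one. A total of 13 were called, 5 higher and 8 lower, beside the 28.6% called over all tested genes, and the median ratio was −0.04. Of the 13, *GDF11* passed the filter on dim probes only through the HMB channel and *NEDD4L*, *ZFYVE9* and *KLF10* only through the control channel, each the channel in which it was higher. With both channels required, 51 genes were tested and 9 called, 4 higher and 5 lower. Of the 57 genes, the scaling to spike-in RNA called 34, 3 higher and 31 lower. Normexp with loess called 5 (3 higher, 2 lower) and limma's treat 6 (3 higher, 3 lower). The methods' t-test called 7 (3 higher, 4 lower) and median centering without lowess 21 (13 higher, 8 lower). In the same order, 16725, 3539, 2822, 5030 and 7563 of all 24670 tested probes were called.

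Of 8 further ligands and subunits, only *GDF11*, a close relative of myostatin, was tested. Its ratios were 0.98, 1.52, 1.09 and 0.86. Its control signals were 10.6 to 24.0, not well above background on any array, and its HMB signals 30.3 to 43.7, so it could enter the test only if it was higher with HMB and the ratio is a description. After normexp and loess it was at least 1.16-fold higher, measured against its own dim control signal, and was not called (limma adjusted p = 0.0424). The probe of *INHBB*, which encodes the βB subunit of activin, was not well above background in either channel.

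Of 16 genes for latency and activation, 12 were tested and 2 were called, both integrin genes and both lower. Integrins that contain the αv chain are known to release TGF-β from its latent complex. The β6 chain gene *ITGB6* gave −1.17, −0.99, −1.08 and −0.80, a mean of −1.01 ± 0.15 (SD, n = 4, limma adjusted p = 2.05e-04), and both of its tested probes were called. With normexp and loess it was not called (−0.32), and without background correction it was at −0.48. For *ITGAV*, the αv chain, the mean was −0.68 ± 0.30 (SD, n = 4, limma adjusted p = 0.00502), with 4 of 6 tested probes called lower, and this call too was lost with normexp (−0.37). The latent binding protein gene *LTBP1* had 5 tested probes with means of −0.25 to −0.16, none called.

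Of 8 extracellular antagonists, 5 were tested and 1 was called. The decorin gene *DCN*, a matrix proteoglycan that binds TGF-β, gave 0.84, 0.72, 0.97 and 0.54 (mean 0.77 ± 0.18, SD, n = 4, limma adjusted p = 8.22e-04), and it was not called after the scaling to spike-in RNA (0.35). It is also among the fibroblast markers that rose. The follistatin-like gene *FSTL3* had a mean of −0.06 ± 0.11 (SD, n = 4, limma adjusted p = 0.500).

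Of 7 other receptor genes, 4 were tested and *ACVR1*, a type I receptor used by activin and bone morphogenetic proteins, was called lower. Its ratios were −0.60, −0.75, −0.32 and −0.45, with a mean of −0.53 ± 0.18 (SD, n = 4, limma adjusted p = 0.00372), a call lost with treat. The activin type II receptor gene *ACVR2A* had a mean of −0.24 ± 0.19 (SD, n = 4, limma adjusted p = 0.0612) on its brighter probe, and its other probe (−0.44) was called lower. The activin type I receptor gene *ACVR1B* was well above background in each channel on 3 arrays only, with ratios from 0.15 to 0.40, and was not tested.

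Of 6 genes in the SMAD list, 4 were tested and 1 was called, lower. For each of the 3 signal carriers, probes of the same gene disagreed. The brightest *SMAD2* probe had a mean of 0.32 ± 0.10 (SD, n = 4, FC 1.25, limma adjusted p = 0.00878), below the FC threshold, while its 6 probes ranged from −0.16 to 0.32. For *SMAD3* the brightest probe gave −0.25 and the second tested probe, called higher, 0.54. For *SMAD4* the brightest probe gave −0.12 and 2 of 6 probes were called higher, up to 0.47. Averaged over its tested probes, each of these 3 genes changed sign, to −0.06, 0.14 and 0.30, respectively. The inhibitory *SMAD7* was well above background on 1 array in the control and on 2 with HMB and was not tested. The gene called lower was *ZFYVE9*, whose product brings SMAD2 to the receptor, with ratios of −0.34, −0.11, −0.48 and −0.67. Its mean was −0.40 ± 0.24 (SD, n = 4). The HMB channel was well above background on 1 array, so the ratio is a description. With normexp the mean of *ZFYVE9* was −0.0258 and it was not called.

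Of 12 intracellular brakes and their regulators, 10 were tested, 2 were called higher and 1 lower. The deubiquitinase gene *USP15*, known to act on the TGF-β receptor complex, had 3 probes, all called higher, and the brightest gave 1.34, 1.53, 1.54 and 1.29 (mean 1.42 ± 0.13, SD, n = 4, FC 2.68, limma adjusted p = 3.83e-05). The co-repressor gene *SKI* rose by 0.80 ± 0.34 (SD, n = 4, limma adjusted p = 0.00381) and was not called with normexp (0.36). The ubiquitin ligase gene *NEDD4L*, which acts on SMAD2 and SMAD3, had control signals of 42.4 to 61.1 and HMB signals of 18.8 to 30.2, the latter well above background on 1 array. Its ratios of −1.14, −0.86, −1.02 and −1.53 are therefore a description, and with normexp the mean was −0.27.

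Of 23 genes known as targets of TGF-β, 22 were tested, 1 was called higher and 3 lower, and the median ratio was 0.0802. The counts rest on the brightest probe of each gene. Among the genes not called, 3 of 7 *COL3A1* probes and 2 of 5 *LTBP2* probes were called higher, and no probe was called lower. *KLF10*, 1 of the 3 lower genes, was well above background with HMB on 1 array only. The gene *JUNB*, which encodes a subunit of the transcription factor AP-1, gave 0.32, 0.28, 0.80 and 0.39 (mean 0.45 ± 0.24, SD, n = 4, limma adjusted p = 0.0128). Array 3 was the highest, and without it *JUNB* fell below the FC threshold, to 0.33. The call was also lost without the filter on dim probes, with the methods' t-test, with treat and after the scaling to spike-in RNA (0.0346). The transcription factor gene *SNAI2* was lower on 4 of 4 arrays (−0.85 ± 0.29, SD, n = 4, limma adjusted p = 0.00191), and 3 of 3 probes were called. With normexp it was not called (−0.32), and without background correction it was at −0.44.

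**Figure D4:**
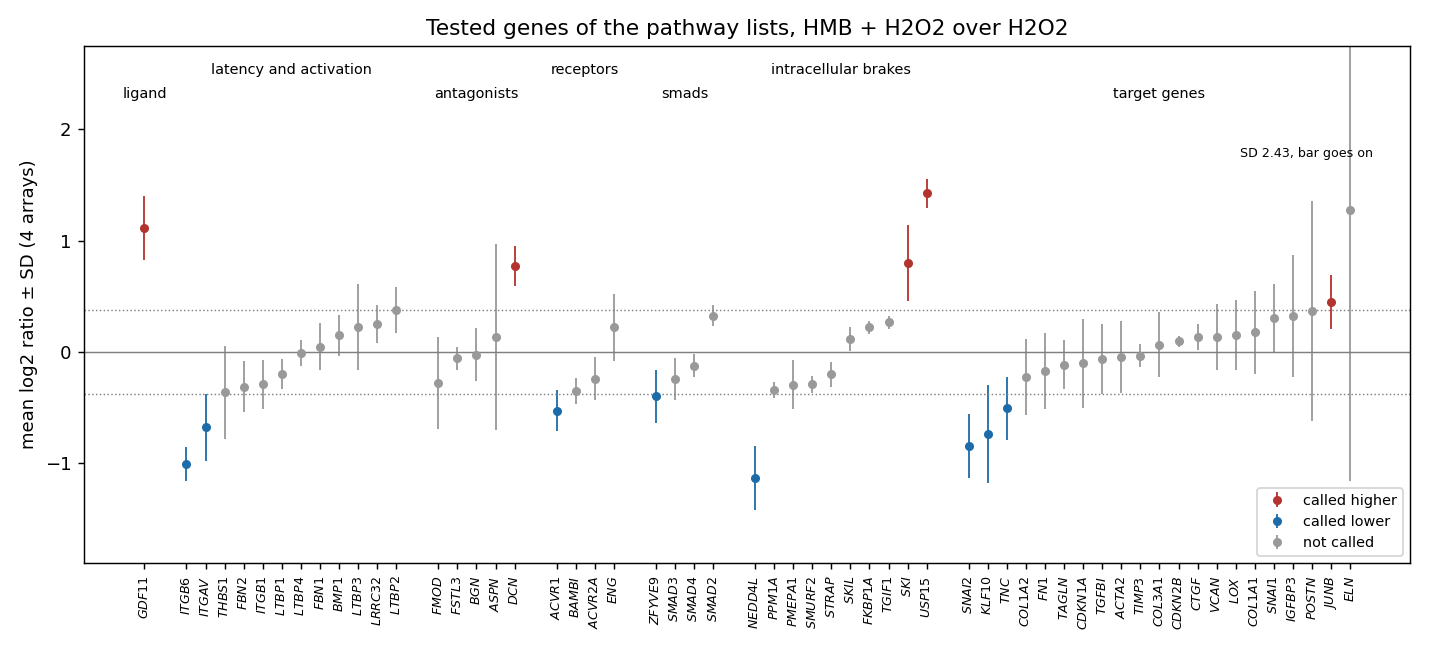
Mean log2 ratio ± SD over 4 arrays (y axis) of the 57 tested genes of the pathway lists, ordered within each list (x axis). Red and blue points are genes called higher and lower, grey points were not called, and dotted lines mark an FC of 1.3. The 5 red and 8 blue points are spread over all 7 lists, and the bar of *ELN* runs past the frame.

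The fall of *TGFB2* was called under every one of the 18 alternatives to the processing, with means from −1.54 to −1.02. Without the scaling to spike-in RNA, the other members stayed between −0.34 and 0.34.

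**Figure D5:**
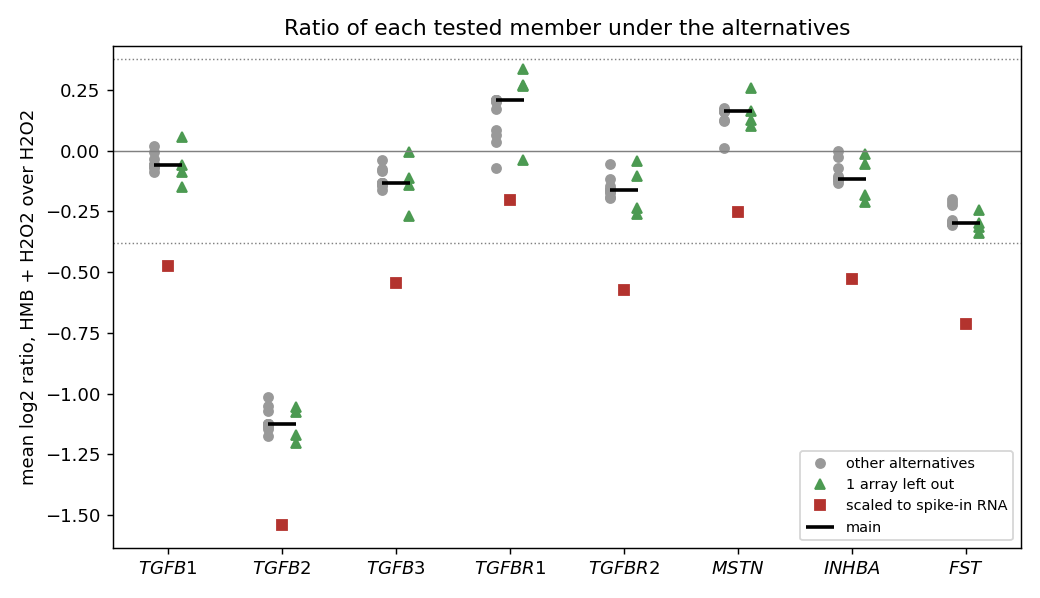
Mean log2 ratio (y axis) of the 8 tested members (x axis) as reported (black), with 1 array left out (green), after scaling to spike-in RNA (red) and under the other alternatives (grey). Dotted lines mark an FC of 1.3. Every *TGFB2* value lies below −1, and the red points lie below all other points of their gene.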

How the data were processed

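Expression was measured on 4 Agilent horse arrays with 2 colors, whose probes of 60 bases have EquCab1 coordinates per the file headers. The intensity values in the deposited scanner files are background-subtracted, lowess-normalized Cy5 and Cy3 signals, and the log10 values, in these files and in the authors' table, are ratios of Cy5 over Cy3 written by Feature Extraction 10.10.1.1. The log2 values were calculated from the deposited log10 ratios. Marked and control spots were left out. A tested probe had Cy3 or Cy5 well above background on all 4 arrays and at least 3 ratios. The ratios were tested against 0 with limma 3.58.1 (R 4.3.3) and p-values were adjusted by Benjamini-Hochberg across the 24670 tested probes, after a check on simulated data. The signals of dim probes are partly surrogates, which compresses their ratios, and the number of arrays limits the precision.

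Genes without a listed symbol were matched by exact description or, for *TGFB2*, by RefSeq accession. The members and lists were chosen with earlier results of these data known. Named are all members, in each list the called gene with the largest rise and with the largest fall among those with 1 sign on all arrays, and 9 partners of the members. One gene of the target list is not reported here. The genes *ITGAV*, *SKI*, *KLF10*, *ELN*, *FKBP1A*, *LTBP3*, *SKIL*, *LTBP2*, *COL1A2*, *COL3A1* and *S100A4* were added after their values were seen. The FC of 1.16 for *GDF11* was calculated after normexp, loess and Aquantile. It sets the HMB signal against the lowest control signal that was well above background, or its own where higher. Its own was used, so the FC is no lower bound. Alternatives covered background, normalization, scaling, filters, tests and each array left out.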

Additional observations from a re-analysis of the deposited data

Results flagged for a closer look

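Of 75 ratios examined (18 member probes and 57 pathway genes), 4 had 1 array far from the other three, and chance alone gives about 1 such case in 20. None was a member. The elastin gene *ELN* had a ratio of 4.91 on array 4 and −0.14 to 0.28 on the others, and on array 4 its control signal was 13.1 and its HMB signal 395, against 59.4 to 70.2 and 53.9 to 83.7 on arrays 1 to 3. For *LTBP3*, a latent TGF-β binding protein, array 3 gave 0.80 and the others −0.02 to 0.11. For *SKIL*, a co-repressor, array 2 gave 0.28 and the others 0.05 to 0.07. For *FKBP1A*, which binds type I receptors, array 4 gave 0.13 and the others 0.24 to 0.26. The cause was not tested.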

How the results depend on the processing

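No paired analysis was possible because there is 1 group of arrays, and each array already pairs both channels. Out of 24670 tested probes, 7046 were called, 42.5% of them higher. Counted anew over the same probes, 3539 were called with normexp and loess (55.0% higher) and 4440 without background correction (60.1% higher). With treat 2822 were called (54.6% higher), and 16725 after the scaling to spike-in RNA (8.31% higher). That scaling gave 16 member probes instead of 2, 6 member genes instead of 1 and 34 pathway genes instead of 13. Pathway genes called were 5 with normexp, 6 with treat, 7 with the methods' t-test and 21 with median centering. With 1 array left out, 6641 to 7155 probes, 2 to 3 member probes, 1 member gene and 14 to 15 pathway genes were called.

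Signs changed for these uncalled ratios. After the scaling to spike-in RNA, *TGFBR1* was at −0.20, *MSTN* at −0.25 and *SMAD2* at −0.0881. Without background correction *TGFB1* was at 0.0174 and *FSTL3* at 0.0378, and *FSTL3* was at 0.0098 with normexp and at 0.0247 with median centering. With 1 array left out, *TGFB1* ranged from −0.15 to 0.0561 (highest without array 1) and *TGFBR1* from −0.0375 to 0.34 (lowest without array 3). With the mean over all tested probes, *TGFBR1* was at −0.0723, *SMAD2* at −0.0615, *SMAD3* at 0.14 and *SMAD4* at 0.30. The difference of *TGFB3* and *TGFB1* ranged from −0.20 to 0.0507 with 1 array left out, turning its sign without array 4. The other differences kept their sign under each alternative in which they were calculated. With 1 array left out they ranged from −1.13 to −0.97 for *TGFB2* minus *TGFB1*, 0.93 to 1.16 for *TGFB3* minus *TGFB2*, −0.57 to −0.22 for *TGFBR2* minus *TGFBR1*, −0.30 to −0.06 for *FST* minus *INHBA*, −0.60 to −0.37 for *FST* minus *MSTN* and −0.31 to −0.18 for *INHBA* minus *MSTN*. Under the other alternatives, values nearer to 0 were −0.12 for *TGFBR2* minus *TGFBR1* (mean over tested probes) and, with normexp, −0.23 for *FST* minus *MSTN* and −0.0834 for *INHBA* minus *MSTN*. Calls of named pathway genes were lost under 7 alternatives for *ZFYVE9*, 5 for *JUNB*, 3 each for *ITGAV* and *SKI*, 2 for *GDF11* and 1 each for *NEDD4L*, *ITGB6*, *SNAI2*, *DCN* and *ACVR1*. Normexp with loess accounts for 1 loss in each of these but *JUNB*, *DCN* and *ACVR1*. The cause was not tested.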
